A study of Mus musculus with 9 samples.

Results

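The immunoglobulin genes comprised every gene of the count tables that the GENCODE M39 annotation of the mouse genome types as an immunoglobulin variable (V), diversity (D), joining (J) or constant (C) gene. There were 239 such genes among 32976, of which 28645 had been matched to the annotation. They were 203 V genes (103 heavy chain, 97 kappa and 3 lambda), 18 D genes, 9 J genes (4 heavy chain and 5 kappa) and 9 C genes (7 heavy chain, Igkc for kappa and Iglc2 for lambda). Of the 13 C genes in the annotation, Ighd, Iglc1, Iglc3 and Iglc4 were not analysed here, so the lambda side rested on Iglc2. Heavy chain genes lie on chromosome 12, kappa genes on chromosome 6 and lambda genes on chromosome 16.

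B cells make an antibody by cutting and joining their DNA. A V and a J segment, with a D segment between them in the heavy chain, form a variable exon that is spliced to a C gene. The heavy chain C gene sets the isotype: a B cell starts with Ighm (IgM) and can switch to Ighg1 (IgG1), Ighe (IgE) or another, while the light chain is either kappa or lambda. T cells join the segments of their own receptor genes and leave immunoglobulin V genes unjoined.

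RNA was sequenced with Smart-seq2, an amplification protocol for small amounts of RNA, from CD8+ CD44+ T cells sorted with a tetramer for GSW11, an antigen of the CT26.WT colorectal tumor, from tumors of wildtype BALB/c mice. After implantation all mice had been given anti-PD-1 (clone RMP1-14), on days 3, 6 and 9, so no untreated group entered the comparisons. TetHighProg (replicates 1, 2 and 5) held high avidity cells from progressing tumors, TetLowReg (replicates 6, 7 and 8) low avidity cells from regressing tumors and TetLowProg (replicates 9, 10 and 12) low avidity cells from progressing tumors. The labels do not say which TetHighProg and TetLowProg libraries shared a tumor. The libraries held 16405306 to 36429515 gene counts and between 599 and 8071 genes with at least 10 counts, the level at which a gene is called found here. The sorted population is bulk RNA, in which fewer cells of a type and less RNA per cell cannot be told apart.

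The kappa J segments are shown first, because they held 3204 of the J gene counts, against 667 for the heavy chain J genes, and were unequal. Each line gives the reference strand sequence of the annotated exon and the 6 bases after it (GRCm39, plus strand), and the capitals mark the 2 bases after the closing aaac, where the splice donor of a J segment begins.
Igkj1 (chr6:70699546-70699589): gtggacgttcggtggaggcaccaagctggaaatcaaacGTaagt
Igkj2 (chr6:70699900-70699948): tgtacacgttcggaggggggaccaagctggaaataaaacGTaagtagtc
Igkj3 (chr6:70700207-70700250): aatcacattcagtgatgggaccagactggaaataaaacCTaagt
Igkj4 (chr6:70700532-70700575): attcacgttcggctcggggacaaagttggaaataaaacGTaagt
Igkj5 (chr6:70700870-70700917): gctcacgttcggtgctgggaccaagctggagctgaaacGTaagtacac
Igkj1, Igkj2, Igkj4 and Igkj5 carry GT at the marked place and Igkj3 carries CT. In the annotation the exons of Igkj2 and Igkj5 end 4 bases past the aaac. Over the 9 libraries Igkj1 had 2566 counts, Igkj5 606, Igkj2 21, Igkj4 11 and Igkj3 0.

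The V exons of Igkv8-21 and Igkv8-30 are shown because these kappa segments had the most counts of all V genes and belong to the same family. Each line gives the first 290 bases of the V exon (GRCm39, minus strand, read 5′ to 3′), and the capitals mark the places at which they differ.
Igkv8-21 (chr6:70291902-70292191): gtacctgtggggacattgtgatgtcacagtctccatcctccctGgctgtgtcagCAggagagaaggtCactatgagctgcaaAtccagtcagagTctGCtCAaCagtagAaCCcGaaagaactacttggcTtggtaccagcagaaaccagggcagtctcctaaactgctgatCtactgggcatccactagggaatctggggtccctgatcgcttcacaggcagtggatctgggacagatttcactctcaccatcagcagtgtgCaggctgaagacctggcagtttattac
Igkv8-30 (chr6:70094071-70094360): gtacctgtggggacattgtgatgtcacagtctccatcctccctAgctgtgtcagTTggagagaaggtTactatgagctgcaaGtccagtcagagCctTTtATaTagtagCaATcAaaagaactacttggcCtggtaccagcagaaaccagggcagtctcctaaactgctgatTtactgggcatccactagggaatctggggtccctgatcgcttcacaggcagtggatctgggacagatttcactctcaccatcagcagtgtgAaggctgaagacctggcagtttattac
The pair differed at 18 of the 290 bases (93.8% identical). Most of the differences lie in the first part of the exon, and the stretch after them is identical but for a few bases.

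Immunoglobulin counts were concentrated in 3 of the 9 libraries, which came from both low avidity groups. The genes had 136740 counts in TetLowReg replicate 7, 40454 in TetLowReg replicate 8 and 69884 in TetLowProg replicate 12, together 96.5% of the 256021 immunoglobulin counts. TetLowProg replicate 9 had 8777, TetHighProg replicate 5 had 161, TetLowReg replicate 6 had 3, TetLowProg replicate 10 had 2, and TetHighProg replicates 1 and 2 had 0. In CPM, the counts per 1000000 gene counts of a library, the highest libraries were at 3754, 2466 and 2218, TetLowProg replicate 9 was at 242 and TetHighProg replicate 5 at 7.10. In the 2 libraries with 0 counts, 3 counts as a limit allow up to 0.0898 CPM in replicate 1 and 0.118 CPM in replicate 2. The lowest library was at 0.136 CPM in TetLowReg and at 0.0796 CPM in TetLowProg, so each low avidity group overlapped TetHighProg. Over all genes, 8004, 7234 and 6443 were found in TetLowReg replicates 7 and 8 and TetLowProg replicate 12, and 8071 in TetLowProg replicate 9. TetHighProg replicates 1, 2 and 5 had 1298, 599 and 3181, TetLowReg replicate 6 had 766 and TetLowProg replicate 10 had 1148. The libraries with few or no immunoglobulin counts were thus also those with the fewest genes found, and the cause was not tested.

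**Figure D1:**
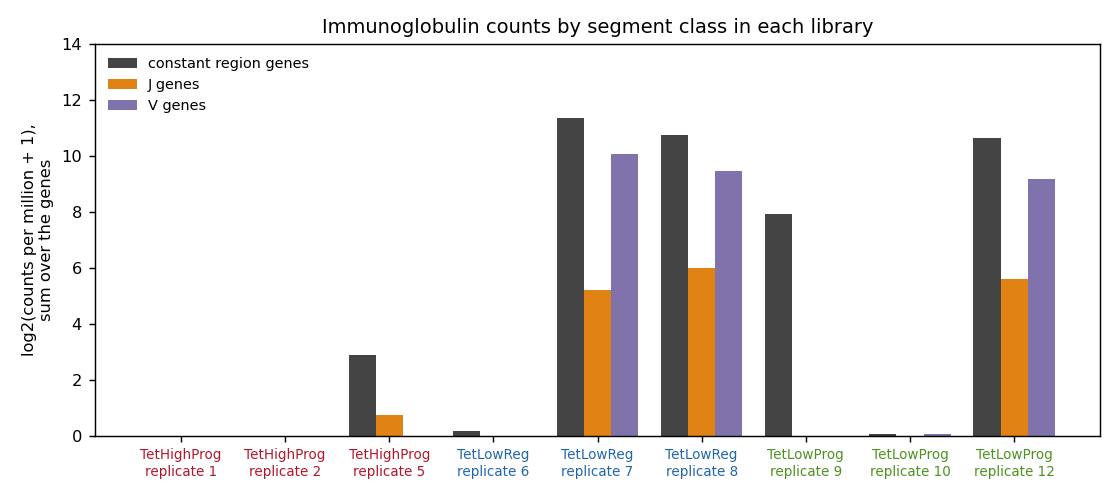
Summed level of C, J and V genes in each of the 9 libraries, as log2(CPM + 1), with each library of TetHighProg (red labels), TetLowReg (blue) and TetLowProg (green) shown by itself. V genes stand beside C genes in TetLowReg replicates 7 and 8 and TetLowProg replicate 12, whereas TetLowProg replicate 9 has C gene counts alone.

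As log2(CPM + 1), the summed immunoglobulin level averaged 7.78 ± 6.58 (SD, n = 3) for TetLowReg, 6.38 ± 5.66 for TetLowProg and 1.01 ± 1.74 for TetHighProg. The difference of TetLowReg from TetHighProg was 6.77 (exact permutation test, two-sided, p = 0.2, and 3 libraries a group allow no p under 0.1). TetLowProg exceeded TetHighProg by 5.38 (exact p = 0.2), and TetLowProg was lower than TetLowReg by a difference of -1.39 (exact p = 0.5). With this number of libraries the test could not have passed 0.05, so it does not settle whether the groups differ. The number of immunoglobulin genes found was 59 and 50 in replicates 7 and 8 of TetLowReg and 61 in replicate 12 of TetLowProg, and no more than 2 in any other library. The mean was 36.3 ± 31.8 (SD, n = 3) in TetLowReg, 20.7 ± 34.9 in TetLowProg and 0.667 ± 1.15 in TetHighProg, with exact permutation p-values of 0.4 for TetLowReg and 0.7 for TetLowProg against TetHighProg and 1 between the low avidity groups. Over all libraries 99 of the 239 genes were found in at least 1 library, 130 had a count in any, and 109 had 0 counts everywhere, among them all 18 D genes.

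The constant genes gave the isotypes. Ighm, the C gene of IgM, had 11274 counts in TetLowReg replicate 7, 4491 in TetLowReg replicate 8, 8777 in TetLowProg replicate 9, 9773 in TetLowProg replicate 12 and 0 in the other 5 libraries. In CPM per kilobase of exon this was 164, 145, 128 and 164, so the libraries that had Ighm at all had it at similar levels. With edgeR's quasi-likelihood test, the log2 fold change of Ighm was 15.96 ± 6.51 (SE) for TetLowReg against TetHighProg and 15.04 ± 6.33 for TetLowProg, with Benjamini-Hochberg adjusted p of 0.233 and 0.193. Neither passed the threshold. DESeq2 with default size factors called Ighm higher in both (adjusted p = 2.86e-10 and 1.26e-10), as did DESeq2 with poscounts size factors (0.00928 and 0.0285) and limma-voom (0.00156 and 0.000594).

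Switched isotypes were found in TetLowReg alone, and mostly in 1 of its libraries. Ighg1, the C gene of IgG1, had 10077 counts in TetLowReg replicate 7, 924 in replicate 8, 1 in replicate 6 and 0 in all 3 TetHighProg and all 3 TetLowProg libraries. Ighe, the C gene of IgE, had 4159 counts in TetLowReg replicate 7 and 0 in the other 8 libraries. Ighg2c had 3 counts, all in TetLowReg replicate 8, and Igha, Ighg2b and Ighg3 had none in any library. Per kilobase of exon, Ighm made up 47.9% of the heavy chain constant signal of TetLowReg replicate 7, Ighg1 31.1% and Ighe 21.0%. In replicate 8 the shares were 86.9% for Ighm and 13.0% for Ighg1, and in TetLowProg replicates 9 and 12 Ighm held 100%. With 0 of 9773 heavy chain constant counts outside Ighm in TetLowProg replicate 12, the lower 95% Clopper-Pearson bound of its Ighm share was 99.96%. Neither Ighg1 nor Ighe passed the edgeR filter on low counts. Without that filter edgeR called no immunoglobulin gene, whereas DESeq2 with default size factors called Ighg1 lower in TetLowProg than in TetLowReg. The reference genome is of C57BL/6, whose Ighg2c is replaced by another IgG2 gene in BALB/c mice.

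**Figure D2:**
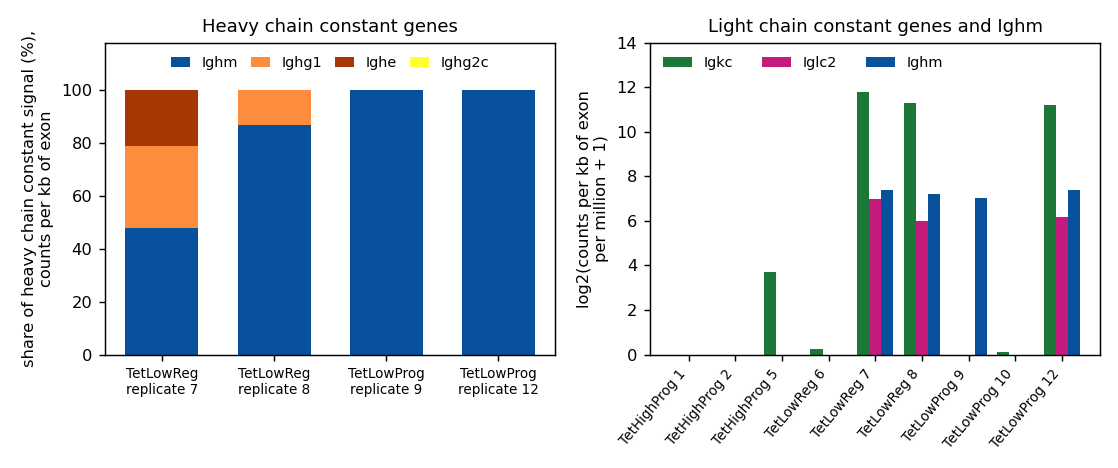
Left, share of the heavy chain constant signal by gene, in counts per kilobase of exon, in the 4 libraries with at least 10 heavy chain constant counts. Right, Igkc, Iglc2 and Ighm in all 9 libraries as log2(CPM per kilobase of exon + 1): Ighm stands at one height in 4 libraries, and Igkc and Iglc2 accompany it in all of these but TetLowProg replicate 9.

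Kappa predominated over lambda wherever light chains were found. Igkc had 67892 counts in TetLowReg replicate 7, 21841 in TetLowReg replicate 8, 38959 in TetLowProg replicate 12 and 146 in TetHighProg replicate 5. It had 2 counts in TetLowReg replicate 6, 1 in TetLowProg replicate 10 and 0 in TetHighProg replicates 1 and 2 and TetLowProg replicate 9. Iglc2 had 2812 and 631 counts in replicates 7 and 8 of TetLowReg, 1386 in TetLowProg replicate 12, and 0 in the other 6 libraries. The kappa share of light chain constant counts was 96.0% (95% Clopper-Pearson interval 95.9 to 96.2), 97.2% (97.0 to 97.4) and 96.6% (96.4 to 96.7) in those 3 libraries, in that order. In TetHighProg replicate 5 it was 100% of 146 counts (97.5 to 100). The remaining 5 libraries had fewer than 10 light chain constant counts and gave no share. The share was 96.6% ± 0.827 (SD, n = 2) in TetLowReg, and TetLowProg replicate 12 differed from that mean by -0.0428 percentage points, or by 0.542 without TetLowReg replicate 8. With 1 library against 2 no test could show a difference, and none is drawn on. With per kilobase counts the shares were 96.5%, 97.6% and 97.0%. Because Iglc1, Iglc3 and Iglc4 were not analysed here, these shares are of Igkc against Iglc2 and not of the whole lambda locus.

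The ratio of light to heavy chain set apart TetLowProg replicate 9 from the other libraries with Ighm. Per kilobase of exon, Igkc was 21.3, 17.2 and 14.1 times Ighm in TetLowReg replicates 7 and 8 and TetLowProg replicate 12. In TetLowProg replicate 9 there were 8777 Ighm counts and none of Igkc, Iglc2, any J gene or any V gene, where 0 allows up to 0.0342% of the Ighm counts. This library had the most genes found of all 9 (8071). The edgeR log2 fold changes of Igkc against TetHighProg were 9.80 ± 4.13 (SE) for TetLowReg and 7.80 ± 3.81 for TetLowProg, with adjusted p of 0.233 and 0.193. For TetLowReg, DESeq2 with default size factors (adjusted p = 0.0314) and limma-voom (0.000476) called Igkc higher, and DESeq2 with poscounts size factors did not (0.0563). For TetLowProg limma-voom called it (adjusted p = 0.0482), and DESeq2 did not with either kind of size factors (0.0671 and 0.148). These values turned on single libraries. All 146 Igkc counts of TetHighProg were in replicate 5, and without it the log2 fold change was 18.46 for TetLowReg and 16.48 for TetLowProg. Without TetLowProg replicate 12 that of TetLowProg was -6.28.

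J genes followed the same libraries. Igkj1 had 837 counts in TetLowReg replicate 7, 724 in TetLowReg replicate 8, 990 in TetLowProg replicate 12, 15 in TetHighProg replicate 5 and 0 elsewhere. It held 83.0% (80.5 to 85.2), 86.5% (84.0 to 88.7) and 73.7% (71.3 to 76.1) of the kappa J counts in the 3 libraries with V genes. Igkj5 held 15.7%, 12.5% and 25.5%, and Igkj2 and Igkj4 stayed at or under 1.09%. All J genes together held 0.959%, 2.55% and 2.17% of the immunoglobulin counts of these libraries. In the layout of the counts a read that also touches a V or C gene is left out. The shares are therefore of the J reads that were counted and need not be those of J use. Igkj3, which has CT after the closing aaac where its neighbours have GT, was at 0 in every library. In the heavy chain no J gene led throughout: Ighj4 led in TetLowReg replicate 7 with 140 of 302 counts, Ighj3 in replicate 8 with 105 of 195, and Ighj1 in TetLowProg replicate 12 with 79 of 170. Ighj1 had 0 counts in TetLowReg replicate 7, and Ighj2 had its 43 counts there alone.

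V genes were found in TetLowReg replicates 7 and 8 and TetLowProg replicate 12 and in no other library. The V counts were 39215, 11532 and 18253 in these libraries, against 1 in TetLowProg replicate 10 (Igkv4-90) and 0 in the remaining 5. TetHighProg replicate 5 thus had Igkc and Igkj1 counts but no V count. Kappa V genes took the larger part, with 34825, 10521 and 16258 counts, against 4390, 1011 and 1955 for heavy chain V genes, and Iglv3 with 40 counts in TetLowProg replicate 12 was the only lambda V gene with a count. The libraries had 17, 13 and 15 heavy chain V genes found and 31, 29 and 37 kappa V genes. There were 0.513, 0.482 and 0.417 kappa V counts per Igkc count and 0.172, 0.187 and 0.200 heavy chain V counts per heavy chain C count, so the 3 libraries were alike in these ratios.

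No V gene held the majority of the V counts of a library. The largest was Igkv8-21 in TetLowReg replicate 7 with 8645 counts, or 22.0% of all V counts (21.6 to 22.5), and in TetLowReg replicate 8 with 1935 counts, or 16.8% (16.1 to 17.5). In TetLowProg replicate 12 it was Igkv8-30 with 3278 counts, or 18.0% (17.4 to 18.5), followed by Igkv8-21 with 10.9%. The share of the largest segment was 19.4% ± 3.72 (SD, n = 2) in TetLowReg, and that of TetLowProg replicate 12 differed from this mean by -1.45 percentage points, or by 1.18 without TetLowReg replicate 7, with too few libraries for a test. TetHighProg gave no share. It took 4, 5 and 6 V genes to pass 50% of the V counts in TetLowReg replicates 7 and 8 and TetLowProg replicate 12.

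Within kappa, the Igkv8 family led in each of the 3 libraries. Its 9 genes, 5 of them found, took 43.0% of the kappa V counts in TetLowReg replicate 7, 26.9% in TetLowReg replicate 8 and 33.9% in TetLowProg replicate 12. After Igkv8-21 and Igkv8-30, the next segment differed in each library. It was Igkv1-135 in TetLowReg replicate 7, with 3912 counts or 11.2% of the kappa V counts. In TetLowReg replicate 8, Igkv15-103 with 1583 counts (15.0%) and Igkv12-44 with 957 (9.10%) stood ahead of Igkv8-30 with 640 (6.08%). In TetLowProg replicate 12, Igkv3-4 followed with 1592 counts (9.79%). Igkv1-135, the V gene that the study names, had 179 counts in TetLowReg replicate 8 and 0 in the other 7 libraries. It thus had counts in 2 of 3 TetLowReg libraries, mostly in replicate 7, and did not pass the edgeR filter.

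**Figure D3:**
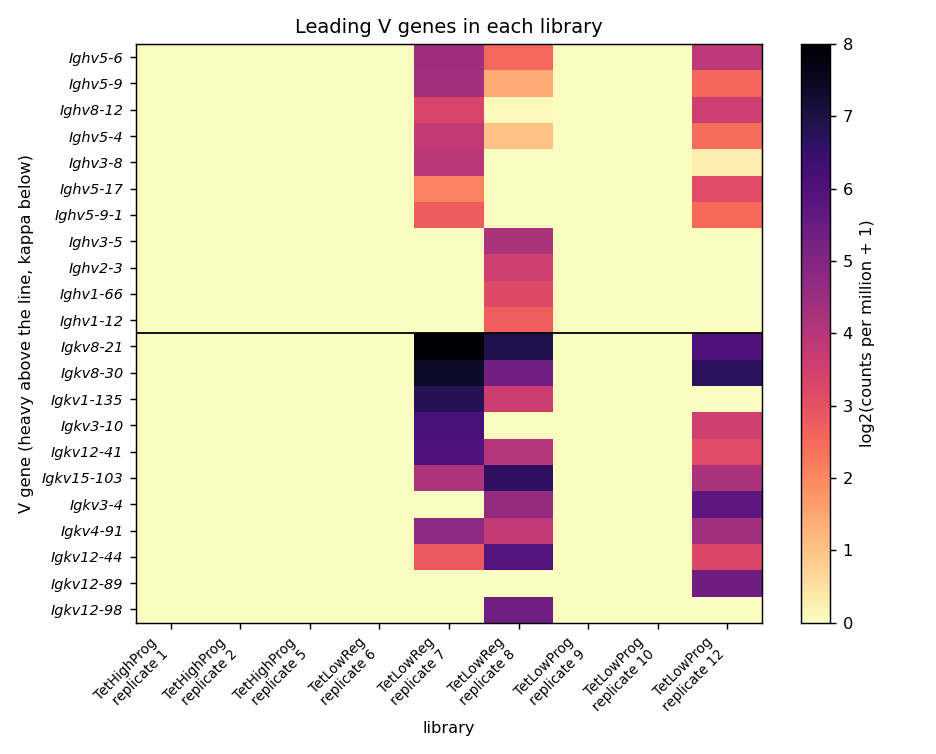
Level of 22 V genes, as log2(CPM + 1), in the 9 libraries: the 5 leading heavy chain and 5 leading kappa genes of each library with V genes, 11 per chain. Igkv8-21 and Igkv8-30 are high in all 3 libraries with V genes, whereas Igkv12-89, Igkv12-98 and Ighv3-5 are each high in 1, and the other 6 columns are at or near 0.

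Heavy chain V genes were divided differently between libraries. Ighv5-6 led in TetLowReg replicate 7 with 744 counts (16.9% of heavy chain V counts) and in TetLowProg replicate 12 with 426 (21.8%). In TetLowReg replicate 8 Ighv3-5 led with 287 counts (28.4%), followed by Ighv2-3 with 170 (16.8%) and Ighv1-66 with 135 (13.4%). Ighv3-5 had 0 counts in the other 8 libraries. The Ighv5 family took 57.1% of the heavy chain V counts in TetLowReg replicate 7 and 59.5% in TetLowProg replicate 12, and 15.4% in TetLowReg replicate 8. Ighv1, the largest family with 49 genes in the tables and 13 found, took 20.2%, 14.8% and 26.8% in the same order. The second gene was Ighv5-9 in TetLowReg replicate 7 with 691 counts (15.7%) and Ighv8-12 in TetLowProg replicate 12 with 340 (17.4%), and the third were Ighv3-8 with 502 (11.4%) and Ighv5-17 with 244 (12.5%).

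V counts were spread over several segments in each of the 3 libraries. The inverse Simpson index, the number of equally used V genes that would give the same concentration, was 10.4, 13.9 and 15.0 over all V genes in TetLowReg replicates 7 and 8 and TetLowProg replicate 12. It was 10.3, 6.78 and 8.48 for heavy chain genes and 8.30, 11.8 and 12.2 for kappa genes. The 10 leading V genes held 72.1%, 68.3% and 61.2% of the V counts. The heavy chain was thus most concentrated in TetLowReg replicate 8 and kappa most concentrated in TetLowReg replicate 7, with 1 library of TetLowProg to set beside them and no test of the order.

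**Figure D4:**
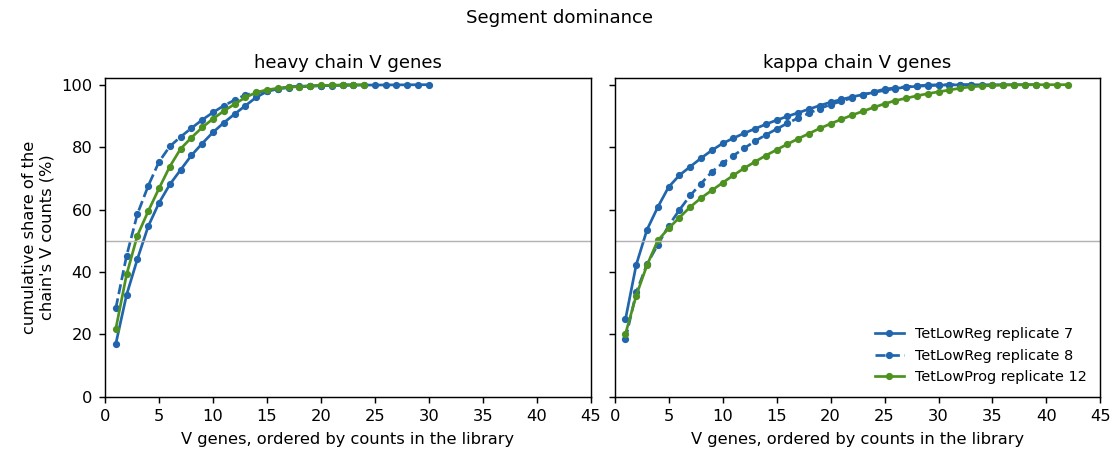
Cumulative share (%) of heavy chain (left) and kappa (right) V counts against the number of V genes, ordered by counts within each library, for TetLowReg replicates 7 and 8 and TetLowProg replicate 12. The grey line marks 50%, which is passed with 3 or 4 heavy chain genes and 3 to 5 kappa genes.

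In all, 87 V genes were found in at least 1 of the 3 libraries: 48 in 1 library, 22 in 2 and 17 in all 3. TetLowReg replicate 7 and TetLowProg replicate 12 had 31 V genes in common, 64.6% of the 48 found in the first and 58.5% of the 53 found in the second. The TetLowReg replicates 7 and 8 had 20 in common, 41.7% of 48 and 47.6% of 42, and TetLowReg replicate 8 and TetLowProg replicate 12 had 22, 52.4% of 42 and 41.5% of 53. The pair from the same group thus had the fewest V genes in common. The 17 genes found in all 3 (14 kappa and 3 heavy chain, Ighv5-4, Ighv5-6 and Ighv5-9) held 60.6%, 64.7% and 51.2% of the V counts. Among the genes found in 1 library alone, Igkv4-57-1 had 1314 counts in TetLowReg replicate 7, Igkv12-89 had 1277 in TetLowProg replicate 12 and Igkv12-98 had 653 in TetLowReg replicate 8 (named after their values were seen).

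V genes resemble each other, which limits what a count of 1 of them means, since reads that fitted several places were left out. The V exon of Igkv8-21 was 92.4% identical to its nearest other V gene and that of Igkv8-30 93.0%, both to Igkv8-19. Igkv1-135 was 96.5% identical to Igkv1-133, Igkv3-10 98.1% to Igkv3-5, and Igkv15-103 75.2% to Igkv14-126. Over the 87 V genes found the median was 94.9%, and over the 87 V genes at 0 everywhere it was 94.8%. In both sets 42 genes were at least 95% identical to another, and 2 genes at 0 were identical to another V gene in this exon. The V genes of BALB/c mice differ from those of the C57BL/6 reference, so a count stands for the reference gene nearest to the transcript.

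Found genes were not confined to a stretch of either locus. In kappa the V genes found lay 24.5 to 3167 kb from the J cluster in each of the 3 libraries, against 19.3 to 3167 kb for all 97. The nearer 49 of these held 75.6%, 68.0% and 66.9% of the kappa V counts. In the heavy chain the nearer 52 of 103 V genes held 68.7%, 73.1% and 70.4% of the counts, with found genes from 168.5 kb to 2374, 2483 and 2552 kb from the J cluster.

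Immunoglobulin V promoters are known for the octamer, a binding site of Oct factors. The octamer ATGCAAAT, read on either strand in the window from 250 bases before to 50 bases after the annotated start, was present in 76.8% of the 203 V genes and in 1.81% of the 28369 matched genes on numbered or sex chromosomes that are not immunoglobulin genes. It was present in 80.5% of the V genes found and in 70.1% of those at 0. It is shown for 3 leading V genes, with capitals for the octamer and 16 bases on each side.
Igkv15-103 (chr6:68414337-68414376, plus strand): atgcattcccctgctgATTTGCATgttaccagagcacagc
Ighv5-6 (chr12:113589686-113589725, minus strand): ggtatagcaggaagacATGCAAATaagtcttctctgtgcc
Ighv3-5 (chr12:114226795-114226834, minus strand): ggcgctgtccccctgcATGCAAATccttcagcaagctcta
The octamer ended 63, 125 and 103 bases before the annotated start of these genes. The windows of Igkv8-21 and Igkv8-30 hold no exact match of these 8 letters, although these genes had the most V counts.

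Across all genes, edgeR tested 5813 genes in 1 model of the 3 groups and called a gene at an adjusted p under 0.05 with an absolute log2 fold change above 2. Of the 239 immunoglobulin genes 25 passed the filter on low counts, 22 of them with counts in TetLowReg replicates 7 and 8 and TetLowProg replicate 12 and in no other library. None of the 25 was called in any of the 3 comparisons, and the background was the same, with 0% of all genes called in each. For TetLowReg against TetHighProg, 24 of the 25 were higher at an unadjusted p under 0.05, all but Igkj1, where 19% of all genes tested were. For TetLowProg against TetHighProg, 2 of the 25 were higher at that level, Igkc and Ighm, where 24.8% of all genes were. For TetLowProg against TetLowReg none of the 25 reached it in either direction, where 0.43% of all genes were higher and 0.499% lower. The median log2 fold change of the 25 was 11.41, 9.12 and -2.46 in the 3 comparisons, beside 4.82, 5.40 and 0.35 over all genes tested. The comparisons with TetHighProg share its libraries, and these 25 genes passed the filter through the libraries in which they were high, so their counts and medians support no difference. None of the 25 had groups that did not overlap in CPM, where 5.8%, 7.17% and 3.42% of all tested genes had.

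The leading genes had the same shape. Igkv8-21 had 8645 counts in replicate 7 and 1935 in replicate 8 of TetLowReg, 1996 in replicate 12 of TetLowProg, and 0 in the other 6 libraries. Its log2 fold change was 15.32 ± 7.07 (SE) for TetLowReg against TetHighProg (edgeR adjusted p = 0.233), 12.16 ± 6.33 for TetLowProg against TetHighProg (adjusted p = 0.194) and -3.17 ± 4.62 between the low avidity groups (adjusted p = 1). Each group contained a library at 0. Iglc2 stood at 13.70 ± 6.71, 11.63 ± 6.21 and -2.07 ± 4.44 in the same comparisons, with adjusted p of 0.233, 0.197 and 1 by edgeR.

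Other tools gave other counts. DESeq2 with its default size factors called 23 of 28 immunoglobulin genes tested for TetLowReg against TetHighProg, all higher, where it called 34.8% of all genes. It called 16 of 30, all higher, for TetLowProg against TetHighProg, where it called 42.9%, and 2 of 13, Ighg1 and Igkv1-135, both lower, for TetLowProg against TetLowReg, where it called 1.88%. With poscounts size factors DESeq2 called 12 of 23, 9 of 23 and 1 of 32 immunoglobulin genes in the 3 comparisons, where it called 27.3%, 24.9% and 0.54% of all genes. Limma-voom with sample quality weights called 22, 2 and 0 of 25, where it called 41.5%, 49.9% and 0%. DESeq2 on the 2 groups compared, added after seeing the data, called 20 of 27, 1 of 2 and 2 of 9, where it called 34.1%, 45.8% and 0.297%.

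The remaining genes of the antibody pathway were read from 5 lists with 41 genes, of which 16 were tested and none called. At an unadjusted p under 0.05, 13 of the 16 were higher in TetLowReg than in TetHighProg, where 19% of all genes were, and 5 of the 16 were higher in TetLowProg, where 24.8% were. None was lower, and none reached that level between the low avidity groups. Like the immunoglobulin genes, most of these passed the filter through the same 3 libraries, so their counts support no difference. Among the partners of the receptor, Cd79a had 4971 and 1737 counts in replicates 7 and 8 of TetLowReg and 5137 in replicate 12 of TetLowProg, where Cd79b had 8721, 7635 and 22321. Both encode chains that carry the signal of surface immunoglobulin, and apart from 1 count of Cd79b in TetHighProg replicate 1 both were at 0 elsewhere. Cr2, the complement receptor, had 3905 counts in TetLowReg replicate 7 alone.

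In signalling, Bank1 had 12824, 11631 and 3188 counts, Lyn 3626, 8031 and 5544, and Btk 771, 1171 and 1414, in the same 3 libraries and no others. Blnk, an adaptor of the receptor, had 1627, 2101 and 316, and also 1744 counts in TetLowProg replicate 9. Of the genes for assembly and diversification, Rag1, Rag2 and Ung were at 0 in all 9 libraries.

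Of the secretion genes, Jchain, which joins IgM and IgA units, had 7991, 1086 and 1472 counts in the 3 libraries and Mzb1, a chaperone of IgM, had 2099, 1039 and 436. Xbp1, a factor of the secretory cell, had 2151, 521 and 8856, and 1910 in TetLowProg replicate 9. Prdm1, which also acts in T cells, had 2397 counts in TetLowProg replicate 9 and 470 in TetHighProg replicate 5, and at most 2 elsewhere. Sdc1 and Tnfrsf17, which mark plasma cells, were at 0 in all 9 libraries. Among receptors for immunoglobulin, Fcmr, the receptor of IgM, had 3568, 1677 and 2399 counts in these libraries, none elsewhere, and Pigr was at 0 throughout. Others of this list had counts outside the 3 libraries. Fcgr2b, an inhibitory IgG receptor, had its most counts in TetHighProg replicate 1 (1347, against 169, 37 and 30), and TetLowProg replicate 9 had 998 counts of Fcgrt and 446 of Fcer1g.

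The B cell markers moved with the immunoglobulin genes. Of 12, 11 were found in TetLowReg replicate 7, TetLowReg replicate 8 and TetLowProg replicate 12, with 1630, 1973 and 2512 summed CPM. In TetLowProg replicate 9, 1 was found (Blnk, 48.2 CPM for the list), and in the other 5 libraries none was found and the list summed to between 0.0454 and 0.316 CPM. Among the 12, Fcer2a, the low affinity receptor of IgE, had 311, 881 and 12980 counts in the 3 libraries. Pax5, Cd79a and Ms4a1, which define B cells, were at 0 in TetLowProg replicate 9. Of 8 plasma cell markers 3 were found in each of the 3 libraries with V genes, 3 in TetLowProg replicate 9 (Xbp1, Prdm1 and Irf4, 120 CPM for the list) and 1 in TetHighProg replicate 5 (Prdm1). Erythroid markers moved with them too: the hemoglobin genes Hbb-bs, Hba-a1 and Hba-a2, 3 of 5 erythroid markers were found in these 3 libraries, at 31.2, 33.4 and 69.6 CPM, and none in the other 6, which lay at or under 0.0454 CPM. CD8 T cell markers were present in every library, with 3 to 12 of 12 found and 1154 to 9985 CPM, and were lowest in TetLowReg replicates 7 (1154 CPM) and 8 (1713 CPM) and TetLowProg replicate 12 (3246 CPM). Single members were at 0: Trac, Trbc1, Trbc2, Cd3d and Cd8a in TetHighProg replicate 2, and Cd8a and Lck in TetHighProg replicate 1. Cd3e and Lck were at 0 in TetLowReg replicate 6, and Cd5 in TetLowReg replicate 8. Counts of 0 were thus also seen for genes of the sorted cell type. The part of B cells or of blood in the immunoglobulin counts was not tested.

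**Figure D5:**
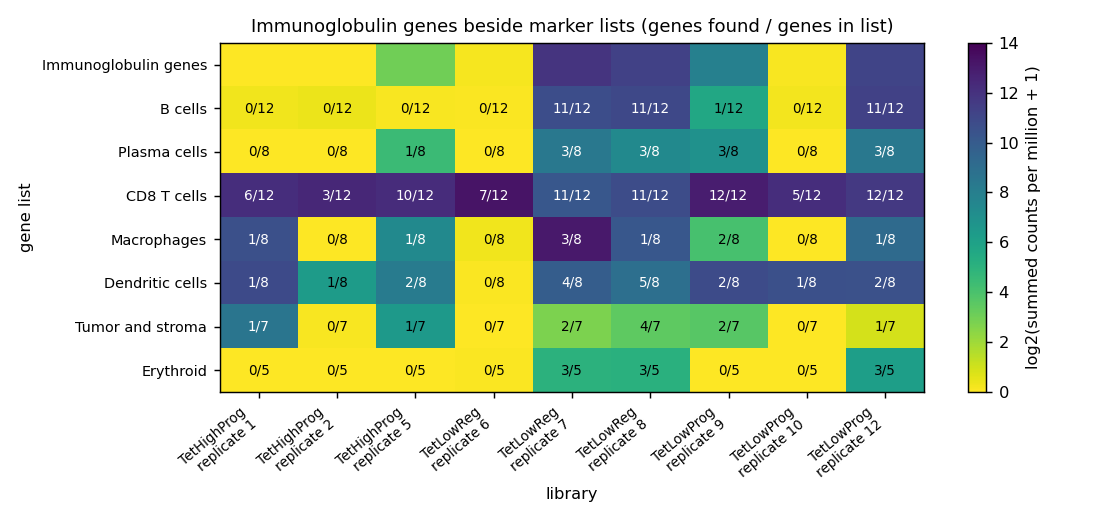
Summed level of the immunoglobulin genes and of 7 marker lists in each of the 9 libraries, as log2(summed CPM + 1), with the number of genes found out of the genes in each list. The B cell and erythroid rows are high in the same 3 libraries as the immunoglobulin row, while the CD8 T cell row is high in all 9.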

How the data were processed

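For each of 9 libraries the authors deposited raw read counts per gene, made with STAR 2.7.6a on GRCm39, per the labels. The methods name featureCounts, while the tables are laid out like those STAR writes per gene; no source used here gives the annotation release. In that layout a read is counted when it touches 1 gene, so reads that span V, J and C segments, or fit several places, are left out: 7.51% to 14.5% of reads fitted several places and 1.05% to 1.96% were ambiguous. The unstranded column was used, and the summary lines were left out of totals. Genes were matched to GENCODE M39 by identifier. Sequences were read from the GRCm39 genome.

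The test across genes was that of edgeR 4.0.16 (quasi-likelihood, TMM factors 0.600 to 1.82, default filter on low counts, Benjamini-Hochberg adjustment, two-sided) in R 4.3.3. DESeq2 1.42.0 and limma 3.58.1 served as alternatives. The scripts were tested on simulated data. For values of single libraries, groups were set against each other by exact permutation, two-sided (Python 3.11.15, SciPy 1.17.1). Intervals and limits of a 0 count (3 counts) cover counting error only, since PCR copies are counted separately. Nothing in the labels says that replicates are separate animals, so p-values measure the spread between these libraries. The study states that the cells came from 3 regressing and 3 progressing tumors, so TetHighProg and TetLowProg may share tumors. The tests between these groups treat them as unpaired.

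The genes, lists and tests were chosen with earlier results of these data known. Named genes are all C genes with counts, the leading 3 heavy chain, 3 kappa and 1 lambda V genes of each library with 10 or more V counts, the J and D gene with the most counts (no D gene had any), V genes found in 4 or more libraries (none) and Igkv1-135, which the study names. Other immunoglobulin genes were named after their values were seen. The lists cover B cells, plasma cells, CD8 T cells, macrophages, dendritic cells, tumor and stroma, erythroid cells and 5 parts of the antibody pathway. Alternatives varied the filter, scaling, tool, count minimum, pseudocount, denominator and gene classes, and left out each library in turn. DESeq2 on the 2 groups compared and kappa shares per kilobase were added after seeing the data. Some genes of these lists are not reported here.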

Additional observations from a re-analysis of the deposited data

How the results depend on the processing

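The count of immunoglobulin genes called was 0 under edgeR with no filter, with library size or poscounts factors, with no threshold on the fold change and with each library left out in turn, in all 3 comparisons. It moved with the tool. For TetLowReg against TetHighProg, DESeq2 with default size factors called 23 of 28 tested (34.8% of all genes), with poscounts 12 of 23 (27.3%), limma-voom with quality weights 22 of 25 (41.5%), and DESeq2 on the 2 groups, added after seeing the data, 20 of 27 (34.1%). For TetLowProg against TetHighProg these were 16 of 30 (42.9%), 9 of 23 (24.9%), 2 of 25 (49.9%) and 1 of 2 (45.8%). Between the low avidity groups they were 2 of 13 (1.88%), 1 of 32 (0.54%), 0 of 25 (0%) and 2 of 9 (0.297%). The cause was not tested. The strict filter left no immunoglobulin gene to test, and neither did edgeR on TetLowProg and TetHighProg alone.

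Leaving out libraries turned some directions. The difference in log2(CPM + 1) between TetLowProg and TetLowReg ranged from -5.19 to 1.74 and was 0.66 without TetLowReg replicate 7, 0.35 without replicate 8 and 1.74 without TetLowProg replicate 10. The TetLowReg difference from TetHighProg ranged from 4.72 to 10.57 and that of TetLowProg from 3.01 to 8.51. For genes found, TetLowProg minus TetHighProg ranged from -0.167 (without TetLowProg replicate 12) to 30.3. The difference in kappa share between the low avidity groups ranged from -0.627 to 0.542 percentage points and that in the largest V share from -4.09 to 1.18, the higher values being without TetLowReg replicate 8 and replicate 7. The Igkc log2 fold change of TetLowProg against TetHighProg ranged from -6.28 (without TetLowProg replicate 12) to 16.48, and Ighm between the low avidity groups from -1.56 to 0.24 (without TetLowReg replicate 7), and the latter was 0.078 under DESeq2 with default size factors. No paired analysis was possible because the groups share no replicate numbers in the labels.

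The 5 libraries under 10 light chain constant counts gave no kappa share, and the 6 libraries under 10 V counts, all 3 of TetHighProg among them, gave no V share. The library with the fewest gene counts, TetLowReg replicate 8, gave both. With every library thinned to its total, the difference in genes found from TetHighProg was 35.7 for TetLowReg and 19.7 for TetLowProg. Thinning evens out the gene counts and not the number of genes that a library detects. TetHighProg replicate 1 had 33409472 gene counts and 1298 genes found, and TetLowReg replicate 8 had 16405306 and 7234. The thinned values therefore say nothing on that difference between libraries.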

Other observations

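The tables also hold counts by strand. In the whole libraries 50.2% to 50.8% of the strand-assigned counts fell in the first strand column, and the constant genes with at least 100 counts had medians of 52.7% in TetHighProg replicate 5 (Igkc alone), 49.5% in TetLowReg replicate 7, 49.2% in replicate 8, 49.7% in TetLowProg replicate 9 and 48.4% in TetLowProg replicate 12. V genes with at least 100 counts had medians of 60.2%, 62.8% and 59.2% in the libraries that had them. Igkj1 stood further out, with 93.5% of 837 counts in TetLowReg replicate 7, 97.7% of 724 in replicate 8, 88.4% of 990 in TetLowProg replicate 12 and 15 of 15 in TetHighProg replicate 5.

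Of 8 macrophage markers 0 to 3 were found in a library. Lyz2 had 299515 counts in TetLowReg replicate 7, 51557 in TetHighProg replicate 1, 19392 in TetLowReg replicate 8, 18079 in TetLowProg replicate 12, 3744 in TetHighProg replicate 5 and at most 5 elsewhere. TetLowReg replicate 7, the library with the most immunoglobulin counts, also had 6085 counts of Cd68 and 214 of Adgre1, and TetLowProg replicate 9 had 570 of Cd68. C1qa was at 0 in all 9 libraries, and Csf1r had at most 9 counts in any. Of 8 dendritic cell markers 0 to 5 were found in a library, and Ccr7, which T cells also use, had up to 63999 counts, in TetLowProg replicate 9. Cd209a had 62249 counts in TetHighProg replicate 1 and 13246 in TetLowReg replicate 7. Zbtb46 had 6124 in TetHighProg replicate 5, 964 in TetLowReg replicate 7 and 840 in replicate 8, and Siglech had its most, 1981, in TetHighProg replicate 2 and 807 in TetLowProg replicate 9. Of 7 tumor and stroma markers 0 to 4 were found, with Krt8 and Krt18 at 0 in every library and Col1a2 at 12437 counts in TetHighProg replicate 1, 1906 in TetHighProg replicate 5 and at most 306 elsewhere.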
